A study of Mus musculus with 16 samples.

Results

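The mouse myoblast line C2C12 was studied as 2 clones that both lack miR-206 and the pair of miR-1a genes, miR-1a-1 with miR-1a-2 (triple knockout, tKO), and these clones were compared with each other. The comparison used the 8 tKO libraries of the 16 in the series, 4 of clone 1 and 4 of clone 2, chosen by the clone and genotype given in the sample titles. Each clone was sampled in growth medium with 20% FBS (GM, myoblasts) and after 3 days in medium with 2% horse serum (DM3, when C2C12 cells form myotubes), with 2 cultures per clone and stage, numbered 1 and 2. The other 8 libraries came from 2 control populations of C2C12 cells in the same stages and are given beside the clones for scale. Their titles do not say whether these populations were clonal. The difference between them may therefore not be a like yardstick for 2 clones. The labels call the cells PAX7 negative, name no other allele or agent, and give no more on how the clones were derived. Each clone is a single clone, and nothing states that the 2 cultures of a clone were independently derived, so p-values measure the spread between these cultures, which may be technical. In the fit over both stages, any change of the clone difference with stage is also counted as spread. The clones differed in single genes, a few of them near 0 in 1 clone, and in chromosomes or stretches of chromosomes whose genes were shifted together.

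miR-206 and the miR-1 microRNAs form 1 family of muscle microRNAs that act on messenger RNAs through a shared seed at their 5′ end. They rise as myoblasts leave the cell cycle and fuse into myotubes, a program driven by transcription factors such as Myod1 and Myog. A clone of a cell line descends from a single founder cell. The mature miR-206 strand is shown because its removal is part of what the 2 clones share (RefSeq, build GRCm38.p6, chr1:20679055-20679076, plus strand), with the seed, bases 2 to 8, in capitals.
mmu-miR-206-3p: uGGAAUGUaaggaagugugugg
Poly(A) libraries do not measure the mature microRNAs, so the deletions were not checked here. The host transcript of Mir206, listed as mmu-mir-133b, had 0 fragments in the 4 GM libraries. In DM3 it had 18 and 60 fragments in clone 1 and 14 and 152 in clone 2.

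Library depth was 22642563 to 32102386 fragments over the 8 tKO libraries. Stage separated the libraries most, with 70.5% of the variance on the first principal component, and across genes the correlation was 0.96 to 0.98 between cultures of 1 clone and stage and 0.95 to 0.98 between clones within a stage. The library of clone 1, DM3, culture 1 stood apart on the second component (12.2% of the variance) and had the lowest share of mitochondrial fragments, 1.2% against 1.98% to 3.31% in the other 7. All 10 myoblast and myotube markers were detected. Markers of endothelial cells summed to at most 0.483 FPKM. The adipocyte list summed to 4.07 to 15.5 FPKM, the immune list to 0.712 to 4.07 and the epithelial list to 0 to 4.55. Clone 1, GM, culture 2, the library of lowest depth, had 11.5 FPKM of Fabp4 and 4.01 of Krt8. Other tKO libraries had at most 3.41 and 0.791. Sftpc and Alb, given below, were also highest in that library. The neural and Schwann list summed to 1.21 to 8.15 FPKM, most of it Tubb3, with Sox10 at most 3 fragments in every tKO library. The chondrocyte and osteoblast list summed to 9.22 to 30.7 FPKM, most of it Sox9 and Runx2, with Bglap at most 3 fragments. The smooth muscle list, led by Acta2, summed to 2093 to 6132 FPKM in GM and 951.7 to 1545 in DM3.

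Clone 2 differed from clone 1 in 123 of 11876 tested genes, 1.04% (limma on log2(FPKM + 1) with stage as a covariate, Benjamini-Hochberg adjusted p under 0.05). Of these, 71 genes (0.598% of those tested) were higher in clone 2 and 52 (0.438%) were higher in clone 1. Their difference ran from 0.55 to 4.33 in size on the log2 scale with a median of 1.14, and 81 of them differed by at least 1. Before adjustment, 2018 genes had p under 0.05. In the same test the 2 control populations differed in 0 of 11745 genes with limma, with 102 at an unadjusted p under 0.05. Counted without a test, 1959 genes (16.5%) had all clone 1 libraries on 1 side of all clone 2 libraries within both stages, against 272 genes (2.32%) in the control populations. Same-numbered cultures of the clones deviated together within a stage, and with culture number within stage as a replicate block the clones differed in 906 genes (7.63%), 473 higher in clone 2 and 433 higher in clone 1, which included all 123. Single libraries moved the count: it was 336 without clone 1, DM3, culture 2, it was 57 and 52 without cultures 1 and 2 of clone 1 in GM, 47 and 46 without those of clone 2 in GM, and 49 and 47 without those of clone 2 in DM3. Without clone 1, DM3, culture 1, the library that stood apart, 82 genes were called, 72 of them among the 123.

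Cox7b2, a paralog of a cytochrome c oxidase subunit known from testis, differed most. It lies on the minus strand of chromosome 5 (ENSMUSG00000049387, 71442824 to 71548205, coordinates as in the deposited table, mm10). Clone 1 had 0 and 0 FPKM in GM and 0.115 and 0.192 in DM3, where FPKM is fragments per kilobase of gene, scaled to the library's fragments. Clone 2 had 23.1 and 21.2 FPKM in GM and 18.2 and 20.3 in DM3, and the 8 control libraries had 13.2 to 21.3. Clone 2 sat at or just above the control level at both stages and did not overlap clone 1. Clone 1 had 5 fragments in all against 1363 in clone 2, a ratio of 255 at equal depth with an exact 95% interval of 109 to 786 that covers counting error only. The log2 difference was 4.33 with a standard error of 0.14 (limma, adjusted p = 1.59e-06). The 300 bases around its start hold 10 CG dinucleotides, in capitals, and are shown because no other gene differed as much (RefSeq, GRCm38.p6, chr5:71548156-71548455, minus strand).
Cox7b2: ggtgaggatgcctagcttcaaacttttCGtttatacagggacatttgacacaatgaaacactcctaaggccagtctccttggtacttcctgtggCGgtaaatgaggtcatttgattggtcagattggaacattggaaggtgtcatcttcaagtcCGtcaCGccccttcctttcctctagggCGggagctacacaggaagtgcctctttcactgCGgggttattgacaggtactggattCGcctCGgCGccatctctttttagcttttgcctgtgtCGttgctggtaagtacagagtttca
Of all 32851 promoters of this length in the table, 94.6% hold at least 1 CG, which reads the same on both strands, and 56.5% hold fewer than Cox7b2. A match is a description only, since methylation was not measured.

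**Figure D1:**
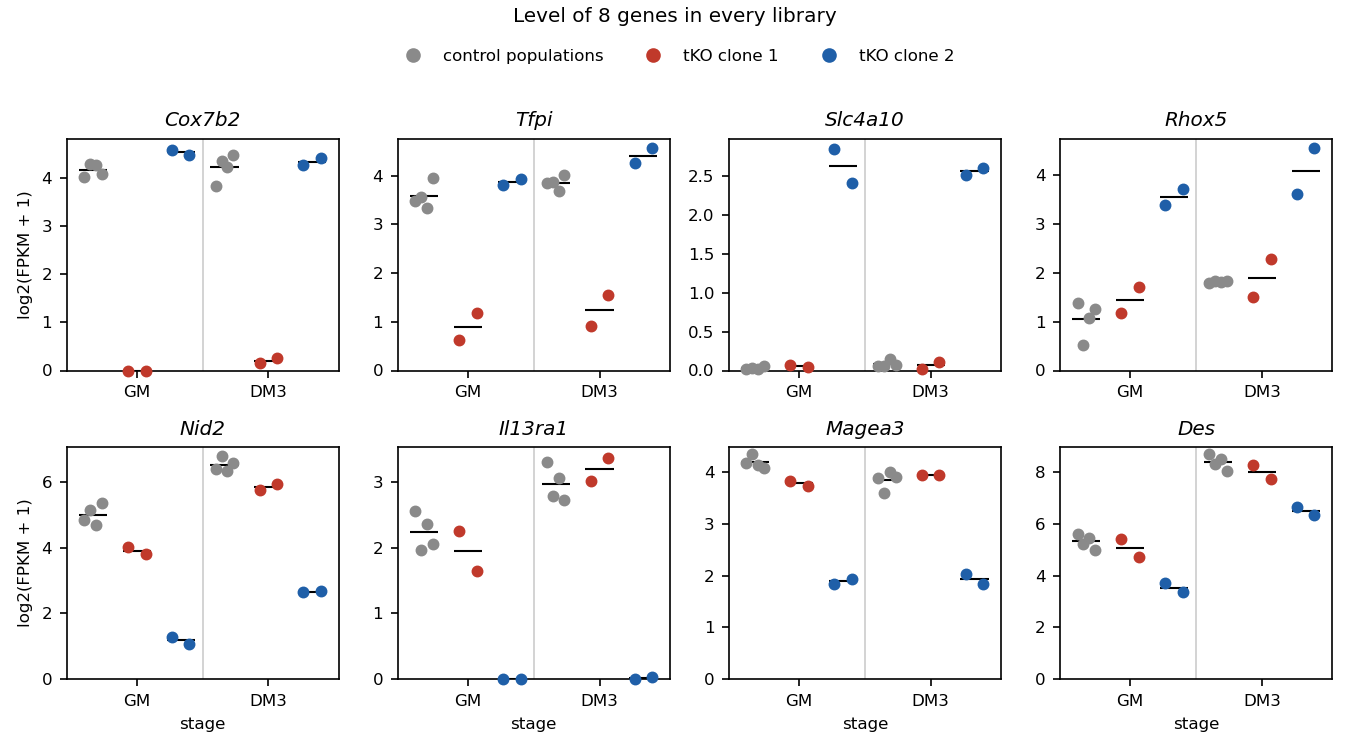
Levels of 8 genes on the log2(FPKM + 1) axis in GM and DM3, with 1 point per library (4 control libraries, 2 of clone 1 and 2 of clone 2 per stage) and a line at each group's mean. Clone 1 alone sits near 0 for Cox7b2 and low for Tfpi, and clone 2 alone sits near 0 for Il13ra1. Clone 2 is the lowest line for Nid2, Magea3 and Des. Clone 1 also lies below every control library of its stage for Nid2, and for Magea3 in GM. For Des the clone 1 mean is below the control mean at both stages. Clone 2 alone sits above the controls for Slc4a10, and it is the highest line for Rhox5.

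Tfpi, which encodes the inhibitor of the tissue factor pathway of blood clotting (chromosome 2, 84432855 to 84476775), had the next largest difference. It stood at 0.536 and 1.26 FPKM in GM and 0.887 and 1.94 in DM3 in clone 1. In clone 2 it stood at 13 and 14.1 FPKM in GM and 18.2 and 22.7 in DM3, and in the controls at 9.04 to 15.1. The clones did not overlap, and clone 2 was above clone 1 by 3.07 on the log2 scale (SE 0.19, limma adjusted p = 0.00013). Slc4a10, a sodium-driven bicarbonate transporter best known from neurons (chromosome 2, 62046462 to 62326730), showed another arrangement. Its FPKM was 0.0492 and 0.0322 in GM and 0.017 and 0.0761 in DM3 in clone 1, and at most 0.103 in any control library. Clone 2 had 6.15 and 4.32 in GM and 4.69 and 5.08 in DM3, so here clone 2 was the line apart from the other 3 (log2 difference 2.53, SE 0.14, limma adjusted p = 8.08e-05).

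Rhox5, an X-linked homeobox gene of reproductive tissues (X, 37804842 to 37808876), was also higher in clone 2 than in every other line. Clone 1 had 1.25 and 2.28 FPKM in GM and 1.86 and 3.87 in DM3, the controls had 0.427 to 2.58, and clone 2 had 9.47 and 12.1 in GM and 11.2 and 22.5 in DM3 (log2 difference 2.14, limma adjusted p = 0.00578). Mgst1, a microsomal glutathione transferase, was below the controls of its stage in every library of both clones, and lower in clone 1, with 0.116 to 1.64 FPKM in clone 1, 2.86 to 11.1 in clone 2 and 10.9 to 21.5 in controls. Angpt4, a ligand of the Tie2 receptor, had 5.22 and 5.11 FPKM in GM and 12.2 and 9.99 in DM3 in clone 1, and 16.0 and 16.3 in GM and 42.5 and 63.5 in DM3 in clone 2. Others among the 12 largest differences in this direction were Gm8332, Gm5662, Slco1a5 (an organic anion transporter), Ncf4 (a cytosolic subunit of the phagocyte NADPH oxidase) and Pex5l, with log2 differences of 1.81 to 2.64. Ncf4 and Gm5662 lost their call with voom on fragment numbers (adjusted p = 0.0844 and 0.0704). Ncf4, Gm5662 and Slco1a5 also lost it when some single libraries were left out, with an adjusted p of up to 0.093 for Ncf4 and 0.0773 for Slco1a5 in limma.

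Among genes higher in clone 1, Nid2 had the largest difference. It encodes nidogen-2, a linker protein of the basement membrane (chromosome 14, 19751257 to 19811787). Clone 1 had 15.3 and 13 FPKM in GM and 53.5 and 60.3 in DM3, and clone 2 had 1.46 and 1.10 in GM and 5.28 and 5.45 in DM3. Values were higher in DM3 than in GM in both clones, and clone 2 was apart from clone 1 by -2.73 on the log2 scale in GM and -3.18 in DM3. The controls were above both clones, at 24.9 to 40.1 in GM and 81.0 to 109 in DM3. The log2 difference over both stages was -2.96 (SE 0.15, limma adjusted p = 3.32e-05). Il13ra1, a receptor chain for interleukin-13 (X, 36112110 to 36171259), was the mirror image of Cox7b2. Clone 2 had 0, 0 and 0 FPKM in 3 libraries and 0.0173 in DM3, culture 2, from 2 fragments in all. Clone 1 had 3.78 and 2.14 FPKM in GM and 7.12 and 9.29 in DM3, within or near the control range of 2.88 to 8.85 (log2 difference -2.57, SE 0.26, limma adjusted p = 0.00299). Its promoter is printed for contrast with that of Cox7b2: it holds 28 CG, and 85.8% of promoters in the table hold fewer (RefSeq, GRCm38.p6, chrX:36111858-36112157, plus strand).
Il13ra1: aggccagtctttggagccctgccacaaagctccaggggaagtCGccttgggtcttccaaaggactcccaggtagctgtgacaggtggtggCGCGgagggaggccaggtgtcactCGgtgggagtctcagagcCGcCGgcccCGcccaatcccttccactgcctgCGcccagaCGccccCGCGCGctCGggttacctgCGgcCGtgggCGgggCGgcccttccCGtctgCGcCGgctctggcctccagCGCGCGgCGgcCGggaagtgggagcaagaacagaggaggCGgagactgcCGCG

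Des encodes desmin, the intermediate filament protein of muscle (chromosome 1, 75360329 to 75368579). It had 41.4 and 25.6 FPKM in GM and 312 and 210 in DM3 in clone 1, and 12 and 9.22 in GM and 98.3 and 80.2 in DM3 in clone 2. The controls had 31.2 to 47.8 in GM and 262 to 415 in DM3, so clone 2 was the lower line at both stages (log2 difference -1.53, SE 0.19, limma adjusted p = 0.00686). It was the only one of the 10 myoblast and myotube markers that passed the test. Myog and Myod1, the myogenic transcription factors, are given because of their role and were picked after their values were seen. Myog had 20.4 and 19.3 FPKM in clone 1 and 8.23 and 3.89 in clone 2 in DM3, with at most 0.113 in any GM library, and did not pass (log2 difference -0.87, limma adjusted p = 0.212). Myod1 in DM3 had 3.41 and 2.72 FPKM in clone 1 and 1.63 and 1.61 in clone 2 (limma adjusted p = 0.321). Muscle lists as a whole did not share 1 direction. The 15 tested myogenic regulators had a median log2 difference of 0.10 with 8 positive, and the 27 sarcomere genes 0.07 with 14 positive. The 10 muscle markers had -0.14 with 2 positive, and the 17 fusion genes -0.07 with 7 positive. Without clone 1, DM3, culture 1, the sarcomere genes had 0.33 with 20 positive, and the markers -0.21 with 4 positive.

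Magea3 and Magea8, neighbouring members of the melanoma antigen family on the X chromosome, were both higher in clone 1. Magea3 had 13.3 and 12.2 FPKM in GM and 14.3 and 14.4 in DM3 in clone 1, and 2.58 and 2.83 in GM and 3.11 and 2.57 in DM3 in clone 2 (log2 difference -1.95, SE 0.12, limma adjusted p = 0.00013). The controls had 15.8 to 19.5 in GM, above both clones, and 11 to 14.9 in DM3. Magea8 was below the control range of 6.37 to 12.3 FPKM in both clones, with 1.29 to 1.88 in clone 1 and 0.155 to 0.312 in clone 2 (log2 difference -1.05, limma adjusted p = 0.00915). How the counting treated reads shared by near-identical copies is not given in the sources used here, so members of such families are uncertain. L1cam, a neural cell adhesion protein, and Ephb2, an ephrin receptor, were higher in clone 1 than in all other lines. L1cam had 5.43 and 3.17 FPKM in GM and 2.92 and 4.43 in DM3 in clone 1, 0.175 to 1.25 in clone 2 and 0.0724 to 0.558 in controls. Ephb2 had 1.79 to 3.58 FPKM in clone 1, 0.258 to 0.454 in clone 2 and 0.651 to 1.03 in controls. Shc2, an adaptor of receptor tyrosine kinases, had 4.95 to 9.54 FPKM in clone 1, 0.508 to 2.72 in clone 2 and 5.71 to 10.5 in controls. Pdlim1, a PDZ and LIM domain protein of the actin cytoskeleton, had 10.5 to 23.6 FPKM in clone 1 and 3.51 to 7.61 in clone 2, with the controls between the clones within each stage, at 12.5 to 14.2 in GM and 6.50 to 7.15 in DM3. Dync1i1, a dynein intermediate chain, 4933402E13Rik, Tom1l1 and Gm13341 complete the 12 largest in this direction, at log2 differences of -2.33 to -1.40. Dync1i1 and 4933402E13Rik lost the call when some single libraries were left out (limma adjusted p up to 0.0889 and 0.105). Gm13341 had a limma adjusted p of 0.0454 that rose to 0.124 at most over its alternatives.

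A gene was counted as silent in 1 clone when it had at most 3 fragments in each of that clone's 4 libraries and a mean of at least 1 FPKM in the other. By this rule 19 genes were silent in 1 clone, 0.0539% of the 35275 in the table, 16 of them expressed in clone 1 and 3 in clone 2. Only 10 of the 19 had more than 3 fragments in all 4 libraries of the expressing clone, 7 in clone 1 and 3 in clone 2. Between the control populations the rule found 1 gene. In clone 2 the silent genes included Kcnk12, a 2-pore domain potassium channel subunit, with 0 fragments in every clone 2 library and 60 to 81 per library in clone 1, at least 24.4-fold higher against a floor of 3 fragments per library. Slc8a1, a sodium and calcium exchanger of heart and muscle, had 30 to 219 fragments per library in clone 1 and 2 in all in clone 2, and it did not pass the test (limma adjusted p = 0.0618). Vgll2, a cofactor of TEAD transcription factors in muscle, had 0.161 to 3.32 FPKM in clone 1 against at most 0.222 in controls and 0.0219 in clone 2. Its value in clone 1, GM, culture 2 lay within the control range, and it did not pass the test (limma adjusted p = 0.0778).

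In clone 1 the silent genes were Cox7b2, Sox11 and Nkd2. Sox11, a transcription factor of progenitor cells, had 2 fragments in all in clone 1, against 1.77 and 2.05 FPKM in GM and 0.295 and 0.502 in DM3 in clone 2 and 3.13 to 4.21 in control GM. Nkd2, an inhibitor of Wnt signalling, had 0.19 and 0.0889 FPKM in GM and 1.81 and 3.29 in DM3 in clone 2, 0.661 to 5.75 in controls and at most 2 fragments per library in clone 1. Neither passed the test over both stages (limma adjusted p = 0.0657 for Sox11 and 0.163 for Nkd2). Several genes met the rule through few libraries: Sftpc, a lung surfactant protein, and Alb, albumin, had 92 and 192 fragments in clone 1, GM, culture 2 and at most 1 in the other tKO libraries. A control GM library reached 2.65 FPKM for Sftpc and 1.40 for Alb.

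In the order of the chromosomes, 6 pairs of neighbouring tested genes were called in the same direction. Over all tested genes 1.04% were called, and the number of such pairs to expect from that share was not worked out. How reads shared by similar copies were counted is not given, so where paired genes are similar their differences may not be independent. On chromosome 6, C1ra and C1s1, proteases of the first complement component, were both higher in clone 2. C1s1 had 10.2 and 16.6 FPKM in GM and 19.2 and 22.2 in DM3 in clone 1, and 43.6 and 50.1 in GM and 48.3 and 63.4 in DM3 in clone 2 (log2 difference 1.57, limma adjusted p = 0.00493). C1ra had 10.7 to 20.7 FPKM in clone 1 and 23 to 38.7 in clone 2, with 25.8 to 45.8 in controls. On chromosome 5, Fam114a1 and Klhl5 were higher in clone 2, by 0.88 and 0.71 on the log2 scale, and Klhl5 lost its call when some single libraries were left out (limma adjusted p up to 0.117). Gm13154 and 2610305D13Rik on chromosome 4 were higher in clone 2, against the trend of that chromosome, and were at most 0.227 FPKM in clone 1. Both lost the call when some single libraries were left out (limma adjusted p up to 0.0606 and 0.054). The other pairs were Gm8332 with Gm5662 on chromosome 12, Nog with Gm2018 on chromosome 11 and Magea3 with Magea8. Gm5662, Nog and Gm2018 lost their calls when some single libraries were left out, with a limma adjusted p of up to 0.114 for Gm2018. With voom on fragment numbers the adjusted p was 0.0704 for Gm5662 and 0.158 for Nog.

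Set beside the control mean of the same stage, clone 1 was the farther clone for 84 of the 123 genes and clone 2 for 39, and for 71 the clones lay on opposite sides of it. Both differences use the same control libraries. The split was not counted over all tested genes, so it may not be particular to the called ones. Clone 1 also holds DM3, culture 1, the library that stood apart. The most frequent arrangement, 55 genes, was a gene higher in clone 2 for which clone 1 was the farther one. Over these 55 the median difference from controls was -1.09 in clone 1 and 0.02 in clone 2. For 29 genes higher in clone 1, clone 1 was again the farther, with medians of 0.99 and -0.07. The remaining 39 had clone 2 farther, 16 with a median of 1.25 above and 23 with a median of -0.99 below the controls.

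**Figure D2:**
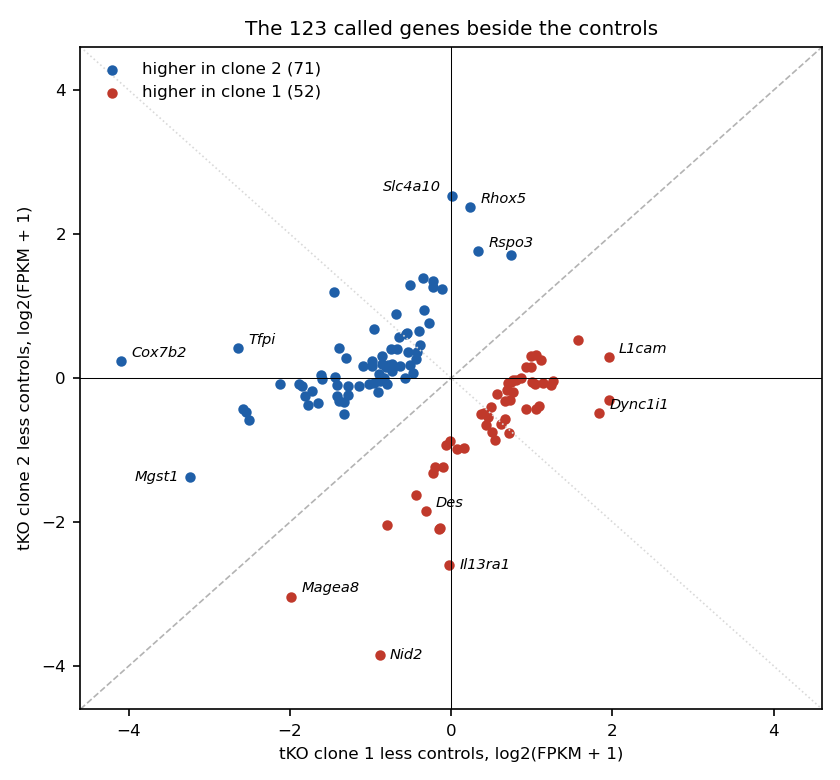
Each of the 123 called genes by its difference from the stage-matched controls in clone 1 (horizontal) and clone 2 (vertical), log2(FPKM + 1). Points lie along both axes, with Cox7b2, Tfpi and Mgst1 far to the left (low in clone 1) and Nid2, Magea8 and Il13ra1 far down (low in clone 2). Mgst1, Nid2 and Magea8 lie below the controls in both clones. The dashed line marks equal and the dotted line opposite differences.

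The clone difference was also estimated within each stage. In GM 14 genes (0.118% of those tested) passed and in DM3 71 genes (0.598%), with 8 in both; with the replicate block within stage the counts were 138 and 372. Leaving out any 1 tKO library gave 2 to 8 genes in GM. In DM3 it gave 40 for each GM library left out, 24 and 185 without clone 1, DM3, cultures 1 and 2, and 26 and 2 without those of clone 2. No gene passed the test of whether the clone difference depends on the stage (limma interaction, 0 genes, 316 at an unadjusted p under 0.05, and 0 with voom, 228 unadjusted). With the replicate block within stage 1 gene passed, Cd74, the invariant chain of antigen presentation. Cd74 had 1.08 and 3.35 FPKM in GM and 80.5 and 65.8 in DM3 in clone 1, and 2.17 and 6.01 in GM and 8.68 and 7.36 in DM3 in clone 2 (interaction -3.69, adjusted p = 0.0082 with the block). Without clone 2, GM, culture 2, the interaction also called 1 gene, Trdj1. Cd74 and Trdj1 were picked after their values were seen.

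Gene lists for muscle, signalling and metabolism were counted in the same fit. Over all 11876 tested genes 1.04% were called, and 7.63% with the block within stage. An unadjusted p under 0.05 was found for 2018 of them. A positive difference was found for 6510, and for 5516 without clone 1, DM3, culture 1. The median log2 difference of all tested genes was 0.03, which other scalings and leaving out that library moved to between -0.02 and 0.11. In the Wnt list, secreted ligands, receptors and feedback genes of a pathway that acts in myoblast differentiation, 4 of 23 tested genes were higher in clone 2, 0 were lower, and 20 had a positive difference, with a median of 0.31. Of the 4, Wnt10a and Wnt4 are ligands. Wnt10a had 2.26 and 1.93 FPKM in GM and 9.84 and 12.2 in DM3 in clone 1, and 6.59 and 5.59 in GM and 46.1 and 44.8 in DM3 in clone 2 (log2 difference 1.57, SE 0.18, limma adjusted p = 0.00493). Its controls had 1.55 to 4.34 in GM and 8.76 to 14.4 in DM3, so clone 2 was above all other lines. Wnt4 had 2.70 and 4.83 FPKM in GM and 0.995 and 1.12 in DM3 in clone 1, and 11 and 11.4 in GM and 2.21 and 2.86 in DM3 in clone 2 (log2 difference 1.08, limma adjusted p = 0.0409). Rspo3, a secreted amplifier of Wnt signalling, had 0.0738 to 1.15 FPKM in clone 1, 1.32 to 5.07 in clone 2 and at most 0.16 in controls (log2 difference 1.43, limma adjusted p = 0.013). Fzd7, a Wnt receptor known from muscle stem cells, had 11.2 to 12.1 FPKM in clone 1 and 19.1 to 21.8 in clone 2, with 17.6 to 25 in controls (log2 difference 0.72, limma adjusted p = 0.0189). With the block within stage 8 of the 23 passed, all higher in clone 2. Without clone 1, DM3, culture 1, the list's median was 0.25 and 16 of 23 were positive. Axin2, a feedback inhibitor induced by Wnt signalling and picked after its values were seen, had 0.658 and 0.865 FPKM in clone 1 and 4.71 and 5.87 in clone 2 in DM3, and did not pass over both stages (limma adjusted p = 0.0971). Wnt4, Rspo3 and Fzd7 lost their calls when single libraries were left out, with adjusted p of up to 0.142, 0.0533 and 0.0947.

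Among growth factors, Pdgfa, a ligand of the PDGF receptors, and Igfbp7, a secreted binding protein, were higher in clone 2, 2 of 37 tested with 0 lower. Igfbp7 had 89.2 and 140 FPKM in GM and 81.1 and 82.1 in DM3 in clone 1, and 304 and 302 in GM and 145 and 153 in DM3 in clone 2. Both lost the call when some single libraries were left out, with a limma adjusted p of up to 0.0947 for Pdgfa and 0.0687 for Igfbp7. With the block within stage, which called 7.63% of all tested genes, 5 genes of the list were higher in clone 2 and 1 was higher in clone 1. Nog, which binds and blocks BMP ligands, was the 1 of 38 TGF-beta and BMP genes called, and was higher in clone 1. It had 3.11 and 3.23 FPKM in GM and 2.33 and 2.60 in DM3 in clone 1, and 0.0188 and 0.287 in GM and 0.83 and 1.27 in DM3 in clone 2 (log2 difference -1.31, limma adjusted p = 0.037, and up to 0.158 over its alternatives). With the block within stage 6 genes of this list were higher in clone 2 and 1 was higher in clone 1. In the matrix list, 37 tested genes held 1 higher in clone 2, Thbs2, an extracellular thrombospondin, and 1 lower, Nid2. Thbs2 had 19.7 to 32.2 FPKM in clone 1 and 41.3 to 82.2 in clone 2, and its limma adjusted p of 0.0168 rose to as much as 0.0672 when single libraries were left out. Under the block within stage 6 matrix genes were higher in clone 2 and 1 was higher in clone 1. The fibroblast markers moved the same way as Thbs2 in value: 4 of 4 tested were higher in clone 2, 0 passed the limma test (4 at an unadjusted p under 0.05), and 2, Pdgfra and Dcn, passed with the block within stage. The sum of the list's 6 genes, nearly all of it Col1a1, overlapped in GM, at 241 to 426 FPKM in clone 1 and 388 to 554 in clone 2. It did not overlap in DM3, at 699.5 to 1254 against 1409 to 1827. Col1a1 itself had 425 and 239 FPKM in clone 1 and 385 and 549 in clone 2 in GM cultures 1 and 2, so clone 2 was the lower in culture 1. Their part in the matrix and growth factor results was not tested, and in bulk RNA fewer cells of a type cannot be told apart from less RNA per cell. Ccl9, a chemokine, and Pcdhb18, a clustered protocadherin, were higher in clone 2, and Pmaip1, the p53 target Noxa, was higher in clone 1, each the only called member of its list in that direction, among 21 cytokines and chemokines, 10 clustered protocadherins and 28 p53 targets and cell cycle inhibitors tested. All 3 lost the call when some single libraries were left out, with a limma adjusted p of up to 0.0947, 0.0661 and 0.168.

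**Figure D3:**
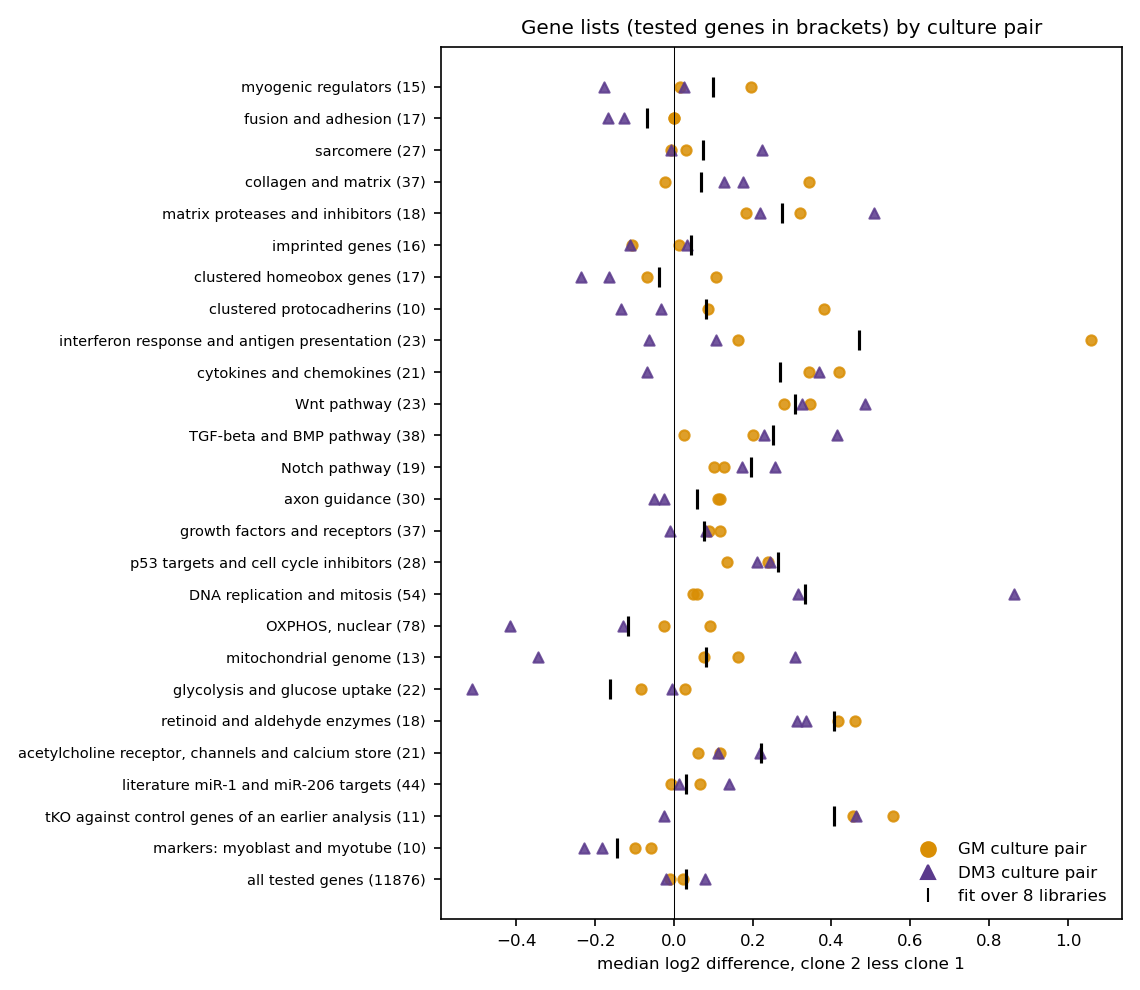
Median log2 difference, clone 2 less clone 1, of each gene list with at least 10 tested genes, for each of the 4 culture pairs (circles GM, triangles DM3) and in the fit over 8 libraries (bars). The Wnt list lies between 0.28 and 0.48 in all 4 pairs, and the retinoid and aldehyde list between 0.31 and 0.46. DNA replication and mitosis lies at 0.05 and 0.06 in GM and at 0.86 and 0.31 in DM3 cultures 1 and 2.

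None of the 54 tested genes of DNA replication and mitosis passed the limma test (13 at an unadjusted p under 0.05), while 48 had a positive difference and the median was 0.33. This median rested on DM3: it was 0.05 and 0.06 in the GM culture pairs, 0.86 in DM3 culture 1 and 0.31 in DM3 culture 2. Without clone 1, DM3, culture 1, it was 0.19 with 45 of 54 positive. The block within stage called 3 of the 54, all higher in clone 2, against 7.63% of all tested genes. Of all 11876 tested genes, 6510 had a positive difference in the fit without the block, and 5516 without that library. Rrm2, the small subunit of ribonucleotide reductase, had 20.6 and 31.9 FPKM in clone 1 and 60.6 and 83.7 in clone 2 in DM3 (limma adjusted p = 0.112 over both stages, 0.0417 with the block). The 78 nuclear genes of oxidative phosphorylation had a median of -0.12, with 15 positive and 0 called by limma (14 at an unadjusted p under 0.05). With the block within stage 1 of them was higher in clone 2 and 6 were higher in clone 1. Without clone 1, DM3, culture 1, the median was -0.02 and 36 were positive. The 13 genes of the mitochondrial genome had a median of 0.08, which became -0.23 without that library, with 0 called in limma (1 at an unadjusted p under 0.05). No gene of the interferon list passed (2 of 23 at an unadjusted p under 0.05). Its median of 0.47 came from GM culture 2 above all, where it was 1.06, against 0.16, -0.06 and 0.11 in the other pairs. Among myogenic regulators (15 tested), fusion genes (17), retinoid and aldehyde enzymes (18), literature targets of miR-1 and miR-206 (44) and Notch genes (19), 0 passed with limma. At an unadjusted p under 0.05 they held 2, 2, 6, 7 and 5 genes, against 2018 of all 11876 tested. With the block within stage the calls changed for 3 of these lists: 3 retinoid and aldehyde enzymes, 4 miR-1 and miR-206 targets and 1 Notch gene were higher in clone 2, and 1 target was higher in clone 1. The 18 retinoid and aldehyde enzymes had a median of 0.41 with 15 positive, a larger median than that of the Wnt list. In the 4 culture pairs their median was 0.31 to 0.46. Without clone 1, DM3, culture 1, it was 0.31 with 17 positive. Of the 15 genes that an earlier analysis of these data gave for tKO against control, 11 were tested and 0 passed the limma test between the clones (6 at an unadjusted p under 0.05), although 3, Aldh1a7, Brinp3 and Kcnj16, passed with the block. Brinp3 had 0.384 to 3.97 FPKM in clone 1 and 2.35 to 9.48 in clone 2, above the controls' 0.26 to 0.661 in all but clone 1, GM, culture 2.

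Expression was then compared chromosome by chromosome. For each library the median over a chromosome's tested genes was taken of log2(FPKM + 1) centred on the stage mean, less the same median over all genes. Genes of chromosome 4 were lower in clone 2 by 0.27 and those of chromosome 19 by 0.22, genes of chromosome 5 were higher by 0.21, and those of chromosome 18 were lower by 0.13. On chromosome 4 the 4 libraries of clone 1 lay at 0.13 to 0.14, and those of clone 2 at -0.15 to -0.13. On chromosome 5 clone 1 lay at -0.12 to -0.10 and clone 2 at 0.09 to 0.12. The other 16 chromosomes differed by -0.018 to 0.059, and the control populations by -0.014 to 0.011 over all 20. The clones did not overlap within either stage on 8 of 20 chromosomes (40.0%), 1, 4, 5, 6, 9, 14, 18 and 19, against 2 in the control populations. For these 8 the exact two-sided permutation test over libraries gave p = 0.0556, the smallest its 36 arrangements allow, and 0.139 after Benjamini-Hochberg adjustment over 20 chromosomes, so this test cannot reach 0.05 here.

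**Figure D4:**
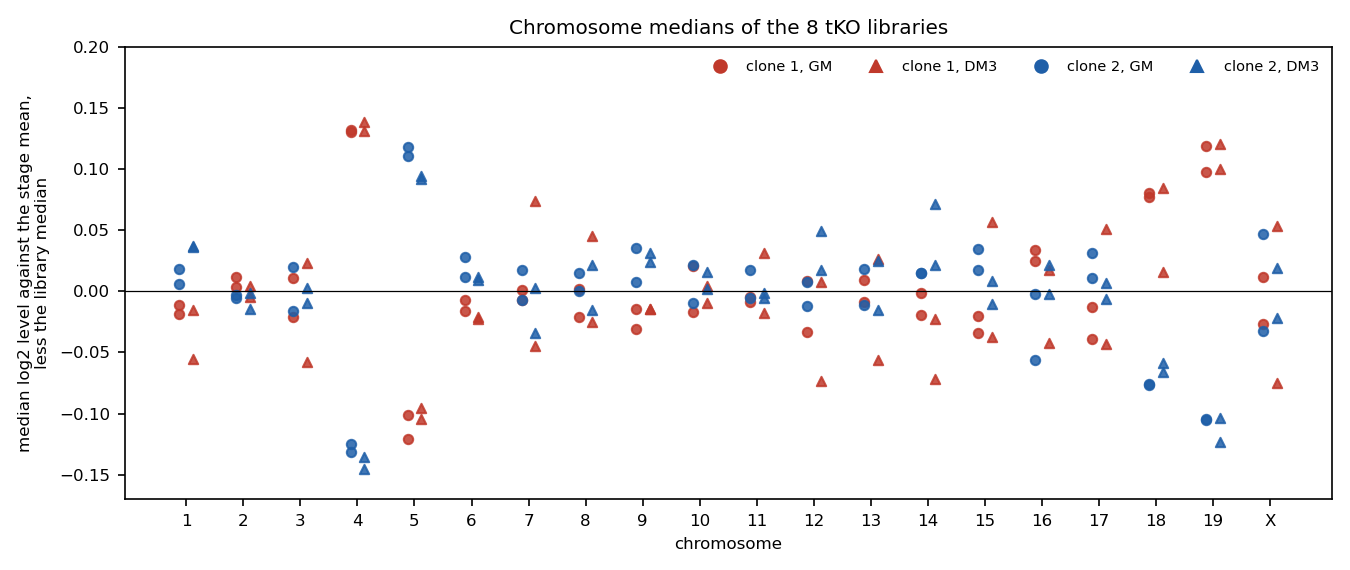
Chromosome value of each of the 8 tKO libraries (circles GM, triangles DM3) against chromosome, on the log2 scale. Clone 1 lies above clone 2 on chromosomes 4, 18 and 19 and below it on chromosome 5, with cultures and stages of a clone close together there, while points of the clones mix on most other chromosomes.

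The shift was shared by most genes of these chromosomes. On chromosome 4, 16.4% of 744 tested genes were higher in clone 2, on chromosome 19 21.5% of 419, and on chromosome 5 81.9% of 747, against 54.8% of all tested genes. On chromosome 18 it was 35.0% of 311. In linear terms, over genes with at least 5 FPKM in every tKO library, the clone 2 level was 0.798 times that of clone 1 on chromosome 4 (0.789 to 0.811 over the 4 culture pairs). It was 0.829 times on chromosome 19 (0.817 to 0.839), 0.882 times on chromosome 18 (0.864 to 0.915) and 1.19 times on chromosome 5 (1.17 to 1.21). The other 16 chromosomes had ratios of 0.964 to 1.05. These are RNA levels, and DNA content was not analysed here.

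Windows of 47 to 53 consecutive tested genes showed where along the chromosomes the clones differed. Of 239 windows, 69 (28.9%) had the clones apart within both stages, against 2 (0.837%) for the control populations. A median difference of at least 0.15 in size was found in 42 windows, all on chromosomes 4, 5, 16, 18 and 19, and in 0 windows between the control populations, whose windows ran from -0.044 to 0.046. All 15 windows of chromosome 4 were lower in clone 2, from -0.34 to -0.17, and so were all 8 of chromosome 19, from -0.33 to -0.06. Chromosome 5 changed along its length: its first 4 windows differed by 0.07 to 0.11 and its other 11 by 0.22 to 0.40. The split that best separated the values lay between Gm8121 and Pcdh7, near 57.6 megabases, with gene medians of 0.07 before and 0.28 after it, and it fell at the same gene in 3 of the 4 culture pairs and near 45.5 megabases in DM3 culture 1. Splits are given for chromosomes 5, 16 and 18 only and were placed by these same values. Unlike medians on either side follow in part from that choice, the culture pairs come from the same 2 clones, and no split was tested. Cox7b2, at 71.4 megabases, lies in the shifted stretch, although its own difference was far larger than the stretch's.

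On chromosome 16 the sign turned. The 209 genes up to Kalrn were lower in clone 2, with a median of -0.17, and the 167 genes from Ccdc14 on were higher, with 0.15, and the whole chromosome's value was -0.02. The split lay at 34.0 to 34.7 megabases in the mean and between 30.6 and 34.7 in single culture pairs. On chromosome 18 the 111 genes up to Cystm1 had a median of 0.07 and the 200 genes from Pfdn1 on had -0.25, with splits of single culture pairs from Etf1 to Ankhd1. Of the windows that hold the deleted microRNA genes, that of Mir206 differed by 0.08 and that of Mir1a-2 by 0.07, with the clones overlapping in at least 1 stage. That of Mir1a-1, at the end of chromosome 2, was lower in clone 2 by 0.13, with the clones apart within both stages. They were also apart in the neighbouring windows 17 and 18 of that chromosome, at -0.09 and -0.11. Gm21747, an antisense gene whose span covers Mir1a-2, was 1 of the genes silent in clone 2, with 0 fragments there. Clone 1 had 5 and 4 fragments in GM and 37 and 15 in DM3, and control libraries at most 2. It did not pass the test (limma adjusted p = 0.082), and the strand setting is not given.

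**Figure D5:**
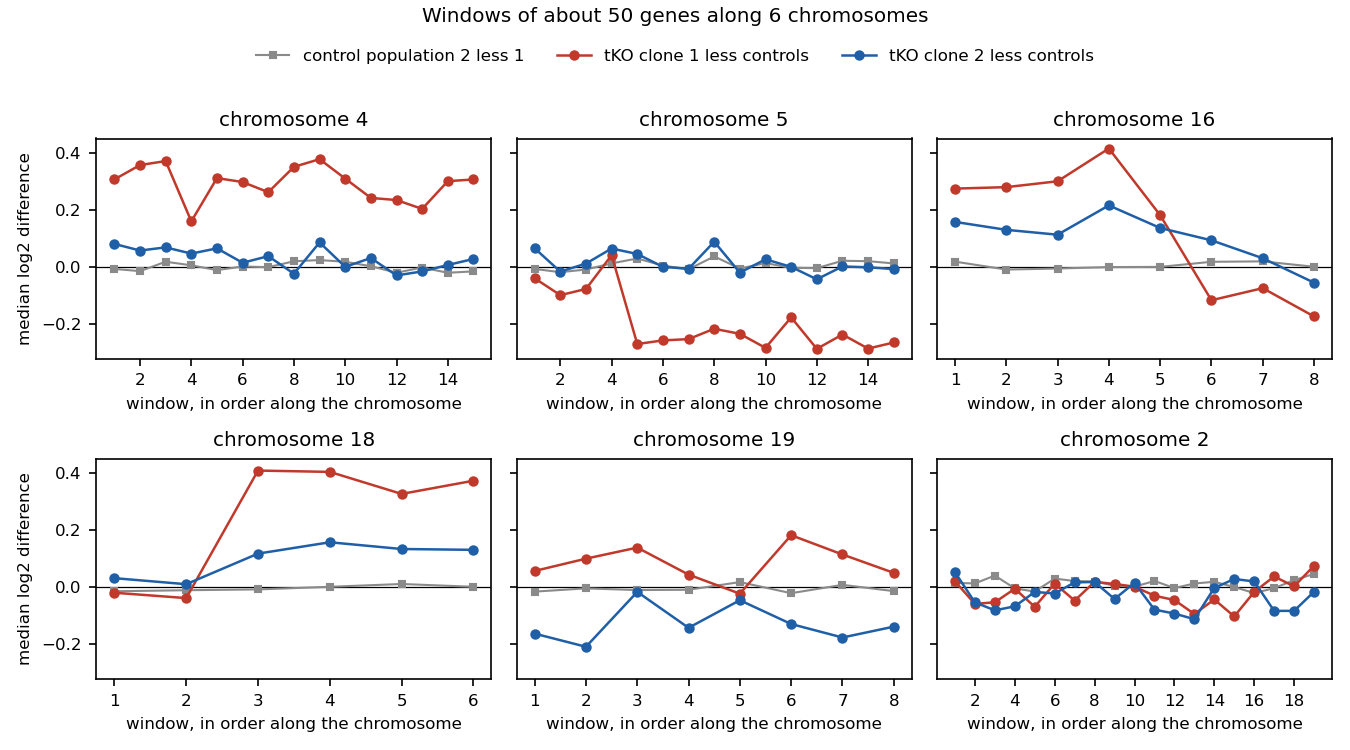
Median log2 difference in windows of about 50 tested genes, in order along chromosomes 4, 5, 16, 18, 19 and, for comparison, 2: clone 1 less controls (red), clone 2 less controls (blue) and control population 2 less population 1 (grey). The grey line stays between -0.044 and 0.046, the red line is raised along chromosome 4 and drops after the fourth window of chromosome 5, and both coloured lines step up within chromosome 18.

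Beside the controls, the chromosomes differed in which clone stood apart. The ratios were taken over 5854 genes with at least 5 FPKM in every library of the series, relative to the 4571 of them on other chromosomes, and both clones share the control libraries. On chromosome 4 clone 1 stood at 1.32 times the controls (1.29 to 1.34 over culture pairs) and clone 2 at 1.02 times (1.01 to 1.04). After the split on chromosome 5 clone 1 stood at 0.820 times (0.787 to 0.834) and clone 2 at 1.00 times (0.983 to 1.03). On chromosome 19 the clones lay on opposite sides, clone 1 at 1.10 times (1.08 to 1.12) and clone 2 at 0.891 times (0.882 to 0.899). After the split on chromosome 18 both were above the controls, clone 1 at 1.39 times (1.33 to 1.45) and clone 2 at 1.12 times (1.09 to 1.14). Before the split on chromosome 16 both were above as well, clone 1 at 1.29 times (1.19 to 1.33) and clone 2 at 1.15 times (1.11 to 1.19). After it clone 1 was at 0.923 times (0.879 to 0.985) and clone 2 at 1.03 times (0.982 to 1.11).

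The called genes were only in part those of the shifted chromosomes. Chromosomes 4, 5, 18 and 19 held 32 of the 123 called genes (26.0%) and 18.7% of the tested genes. With the replicate block within stage they held 360 of the 906 (39.7%), and there most calls followed the direction of the chromosome. Higher in clone 1 were 124 of 134 calls on chromosome 4, 52 of 56 on chromosome 19 and 24 of 32 on chromosome 18. On chromosome 5, 129 of 138 were higher in clone 2. In the fit without the block chromosome 4 held 12 calls, 5 of them higher in clone 2. When each library was expressed relative to the median of the gene's window, 115 genes were called, 91 of them among the 123. Cox7b2, Nid2, Slc4a10, Tfpi and Magea3 also exceeded a log2 difference of 1 in limma's test against that minimum, the 5 genes that did so.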

How the data were processed

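The authors deposited 1 table of FPKM values per gene and library. The submitters' processing notes name mm10, STAR and DESeq; versions, annotation and strand setting are not given in the sources used here. Groups came from the sample titles, and columns were matched through the sample descriptions. FPKM times gene length gave whole multiples of a per-library step (within 0.05 fragments for at least 99.9% of values in the tKO libraries), from which fragment numbers and depth were worked out; counting intervals and the floor of 3 fragments cover counting error only. Genes with a mean of at least 0.5 FPKM over the 8 libraries were tested on log2(FPKM + 1), which understates the change of low genes, with limma 3.58.1 (trend, robust) in R 4.3.3. Stage contrasts and the interaction used a group-means fit. The script was tested on simulated data. Python 3.11.15 with numpy 2.4.6 and pandas 2.3.3 made the other tables.

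Named are the 12 largest called genes per direction without overlap within a stage, genes silent in 1 clone, called members of lists (or the 2 most expressed), the 15 genes of an earlier analysis, runs of neighbours, and chromosomes apart. Members and lists were chosen with earlier results of these data known. The labels number cultures 1 and 2 in every group; deviations of same-numbered cultures of the clones correlated within GM (r = 0.69) and within DM3 (r = 0.50) but not between stages (-0.13 to -0.02), so numbers were taken to pair cultures within a stage, and that block was added after seeing the data, as was the fit relative to window medians. The other alternatives were pseudocount, filter, scaling, voom, moderation, all 16 libraries, a block by culture number, a minimum change and leaving out libraries. RefSeq promoters (GRCm38.p6) matched 74.9% of the tested genes, too few for a comparison of CpG content over the called genes, which is void. Results for some genes are not reported here.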

Additional observations from a re-analysis of the deposited data

How the results depend on the processing

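Of the 46 named genes called over both stages, 24 kept the call under all 13 alternatives tried on them and 22 lost it under at least 1; none changed direction, and neither did the 8 chromosomes followed over 16 settings. The count of 123 genes became 655 with all 16 libraries in the fit, 906 with culture number within stage as a replicate block, 46 with no filter, 35 with a minimum of 5 FPKM, 187 after quantile normalization, 5 against a minimum log2 change of 1, and 22 to 336 when libraries or a culture number were left out. The block by culture number across stages gave 161. The 14 genes in GM became 23 with median-of-ratios scaling, 89 with all 16 libraries, 138 with the replicate block within stage, 3 with no filter, 5 with the minimum of 5 FPKM, 8 with voom, and 2 to 8 with libraries left out. The 71 genes in DM3 became 31 with a pseudocount of 0.1, 252 with all 16 libraries, 372 with the replicate block within stage, 44 with no filter, 12 with the minimum of 5 FPKM, and 2 to 185 with libraries left out. The interaction called 1 gene with the replicate block within stage and 0 to 1 with libraries left out. The 19 genes silent in 1 clone became 50 at a mean of at least 0.5 FPKM, 2 at 5 FPKM, and 77 with at most 10 fragments allowed. The cause of these moves was not tested. The difference between the control populations stayed at 0 genes with limma under every setting tried, with 43 to 286 at an unadjusted p under 0.05. With 2 cultures per clone and stage and 1 clone of each kind, nothing here measures how far other tKO clones would differ.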

Other observations

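The X chromosome held 12 called genes of 390 tested (3.08%, against 1.04% overall), 5 higher in clone 2 and 7 higher in clone 1, while its median difference was 0.01. Besides those described above they included Gpm6b, a proteolipid-family membrane glycoprotein, at 0.00708 to 0.379 FPKM in clone 1 and 0.916 to 6.22 in clone 2, and Sh3kbp1, an adaptor of receptor endocytosis, at 7.85 to 19.5 FPKM in clone 1 and 23.2 to 37.1 in clone 2. Among genes of complement, C1s2 was called with 0.875 to 2.83 FPKM in clone 1 and 3.89 to 6.53 in clone 2, beside C1ra and C1s1, all higher in clone 2. C1s2 did not adjoin that called pair in the order of tested genes. How reads shared by similar copies were counted is not given, so its values may not be independent of those of C1s1. Akr1c12, an aldo-keto reductase on chromosome 13, had 0.314 to 0.56 FPKM in clone 1, 3.07 to 4.43 in clone 2 and a mean of 4.18 in controls. Lgr6, a receptor for R-spondins, had 29.1 and 12.4 FPKM in clone 2 in GM against 3.17 and 2.69 in clone 1, and at most 0.312 in any DM3 library (limma adjusted p = 0.256 over both stages). Irf7, an interferon-induced transcription factor, reached 8.14 FPKM in clone 2, GM, culture 2 and 0.151 to 1.05 in the other 7 tKO libraries. These genes were chosen after their values were seen, and no hypothesis was tested on them.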
